A study of Arabidopsis thaliana with 48 samples.

Results

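The seedling transcriptome of the Arabidopsis double mutant uch1/2 grown in long days was compared with that of wild type in the same conditions. The samples were chosen by their labels alone: 2 uch1/2 libraries against 2 Col-0 libraries of the first expression table, which makes 4 of the 48 libraries of the study. The mutant is labelled uch1(-/-);uch2(-/-), and its control is wild type Col-0. Both were whole seedlings, 11 days old, grown on MS medium plates under 16 h of light a day.

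The study measured RNA of 9 genotypes in long or short days in 2 tables of normalized read counts that were adjusted separately. Besides wild type these are 5 mutants of subunits or partners of the INO80 remodeler and 3 transgenic lines. Here the long-day mutants nfrkb1/2/3, labelled as a homozygous triple mutant, and ino80, labelled as homozygous, served as side comparisons. The short-day libraries of uch1/2 and wild type, under 8 h of light a day, were used to set the long-day values beside another condition; seedlings were 14 days old in the first table, and the labels of the second table give no age. Each mutant genotype is a single combination and the labels name no allele. The labels do not say that repeats came from separate cultures, so the p-values below measure the spread between libraries, which may be technical.

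UCH1 and UCH2 are ubiquitin C-terminal hydrolases, cysteine proteases that remove ubiquitin from proteins. Their animal relative UCH37 (UCHL5) works in a pair of large machines: it binds the proteasome through RPN13 and the INO80 chromatin remodeler through NFRKB. INO80 slides nucleosomes and exchanges histones at genes and at sites of DNA repair. In Arabidopsis, these UCH proteins are known from work on shoot architecture and auxin-dependent growth.

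Values are normalized reads per gene, and a fold change is the difference of group means on the log2(value + 1) scale, uch1/2 minus wild type. A gene was called when its limma test, fitted over all 36 libraries of the first table, had an adjusted p under 0.05 across 25638 genes. Long-day libraries of that table summed to between 19852745 and 22653356 normalized reads. The sums were 20537248 and 20664211 in uch1/2, against 22641975 and 22426969 in wild type, and the 10 most abundant genes took 6.44% and 6.66% of the sum in uch1/2, against 8.68% and 8.92% in wild type. Repeats of a genotype correlated across genes at r = 0.990 in uch1/2 and r = 0.992 in wild type.

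Both targeted genes were low in the mutant. UCH2 (AT1G65650, chromosome 1) had 74.7 and 72.4 normalized reads in uch1/2, against 436 and 471 in nfrkb1/2/3, 455 and 469 in ino80 and 506 and 533 in wild type (log2 fold change -2.80, SE 0.06, adjusted p = 1.7e-19). UCH1 (AT5G16310, chromosome 5) had 90.0 and 80.4 normalized reads in uch1/2, against 194 and 189 in nfrkb1/2/3, 174 and 182 in ino80 and 181 and 204 in wild type (log2 fold change -1.16, SE 0.13, adjusted p = 3.4e-07). Both uch1/2 libraries lay below every library of the other 3 genotypes for both genes, so the labels and the targeted genes match, although neither transcript was lost. Reads that remained at UCH1 may include those of AT5G16300 and the long noncoding AT5G02525, whose annotated spans overlap it, because the strand setting of the counts is not given. The third family member, UCH3, had 697 and 665 normalized reads in uch1/2, against 554 and 581 in wild type (log2 fold change 0.26, SE 0.07, adjusted p = 0.0052); leaving out the first uch1/2 library (adjusted p = 0.064) or the first wild-type library (0.062) ended that call.

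Genes of the INO80 complex and its partners showed small differences apart from 1. RIN1, a RuvB-like ATPase subunit, rose by 0.44 on the log2 scale, with 701 and 655 normalized reads in uch1/2, against 516 and 483 in wild type (SE 0.07, adjusted p = 3.5e-05). The largest rise was that of SDG16 (ATX4), a SET-domain histone methyltransferase gene, with 618 and 679.7 normalized reads in uch1/2, against 342 and 311 in wild type (log2 fold change 0.99, SE 0.09, adjusted p = 1.9e-08). SDG16 was at 640.4 and 686 in nfrkb1/2/3 and 735 and 704 in ino80, so it was above wild type in all 6 mutant libraries shown. INO80 itself, which overlaps EIF3E, had 1785 and 2101 normalized reads in uch1/2, against 1582 and 1579 in wild type (log2 fold change 0.29, SE 0.10, adjusted p = 0.023), and its call did not hold without the second uch1/2 library (adjusted p = 0.28) or without either wild-type library (adjusted p = 0.089 in both cases). ARP4, ARP5, YY1 and SDG29 (ATX5) did not pass the test, with log2 fold changes of -0.06, 0.10, -0.02 and 0.22. Around the targeted loci, 32.4% of 281 genes within a 1-Mb window at UCH1 and 32.2% of 236 at UCH2 were called, against 28.5% of all genes tested. At least 2-fold changes were called in 4.98% of the genes at UCH1 and 8.9% of those at UCH2, against 5.71% of all. Differences from ino80 were called in 0.356% at UCH1 and 4.24% at UCH2, against 1.33% of all, and differences from nfrkb1/2/3 in 0.712% and 0.424%, against 0.312%. The part of linked sequence in these values was not tested. SMP1, a splicing-factor gene next to UCH2, was among them, with 758 and 821 normalized reads in uch1/2, against 1041 and 1033 in wild type (log2 fold change -0.39, SE 0.07, adjusted p = 1.7e-04).

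**Figure D1:**
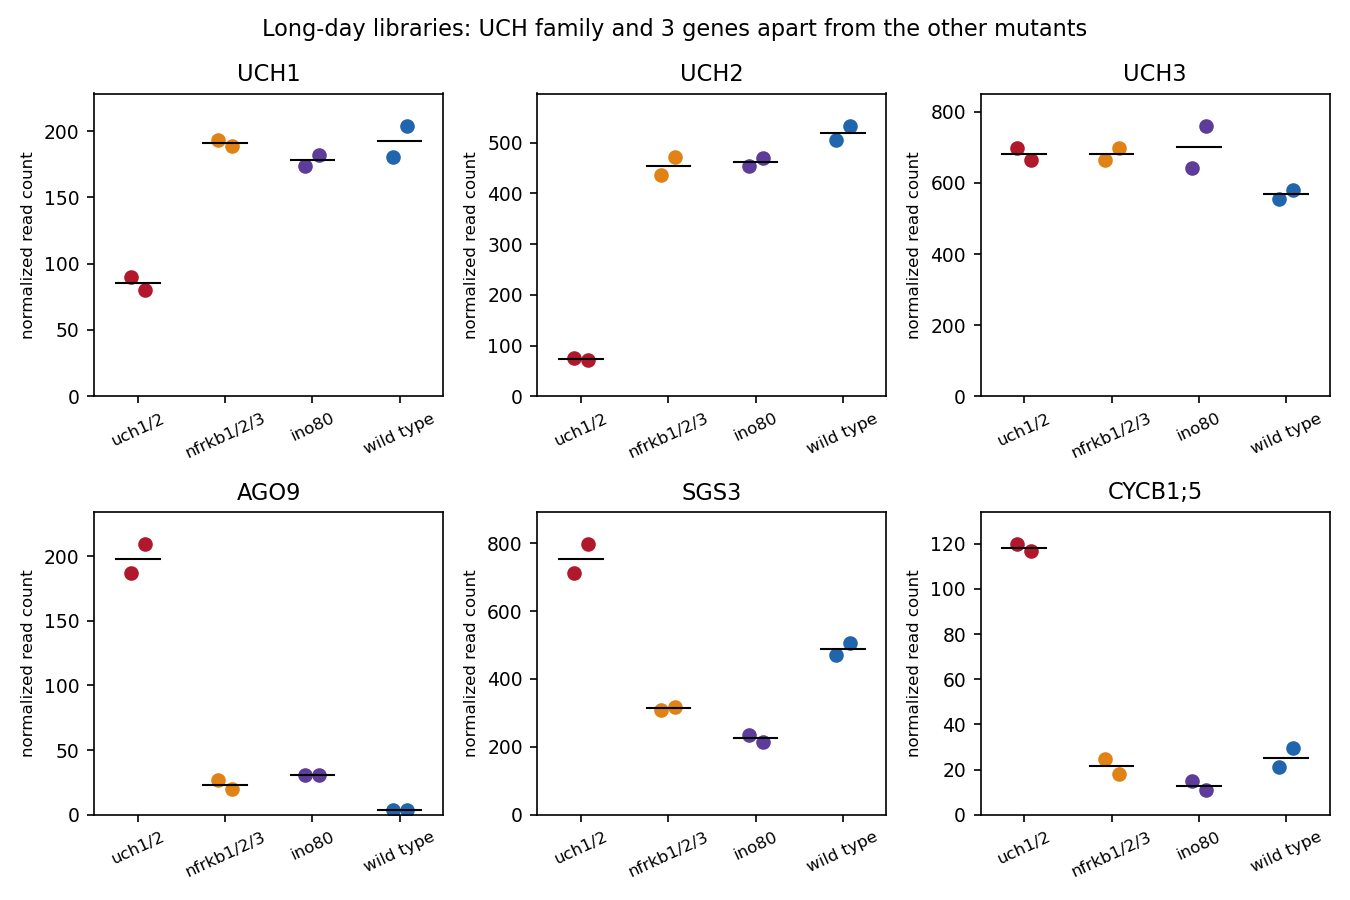
Normalized reads in each long-day library of uch1/2, nfrkb1/2/3, ino80 and wild type for UCH1, UCH2, UCH3, AGO9, SGS3 and CYCB1;5. Each point is 1 library, the short line is the mean of the 2 libraries, and each axis starts at 0. Both uch1/2 points lie below all others for UCH1 and UCH2, and AGO9 stands at 187 and 209 in uch1/2, against about 3.3 in both wild-type libraries, with the other mutants between.

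Differences from wild type were widespread. Of 25638 genes tested, 7301 (28.5%) were called, 3288 higher (12.8%) and 4013 lower (15.7%) in uch1/2. Counts in the gene lists below are to be read beside these shares. With a change of at least 2-fold, 1463 genes were called (5.71%): 658 were higher (2.57%) and 805 were lower (3.14%). The groups did not overlap in 16180 genes, 63.1% of those tested. When all libraries were set to the same sum, the split turned to 5647 higher and 2649 lower, because the median gene moved up by 0.099 on the log2 scale, so small changes below about that size depend on the scaling. Without the first uch1/2 library, 1961 genes were higher and 2757 lower, and without the first wild-type library, 2145 were higher.

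Genes that rose and genes that fell by at least 2-fold differed in level. Their median wild-type level was 13.7 normalized reads for the risers and 78.0 for the fallers, against 194 for all genes tested. Median gene length was 1844.5 bp for the risers and 1932 bp for the fallers, against 2146 bp for all. Protein-coding genes made up 95.3% of the risers and 89.7% of the fallers, against 92.6% of all. Low counts carry more counting error, which limits the precision of the risers most.

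**Figure D2:**
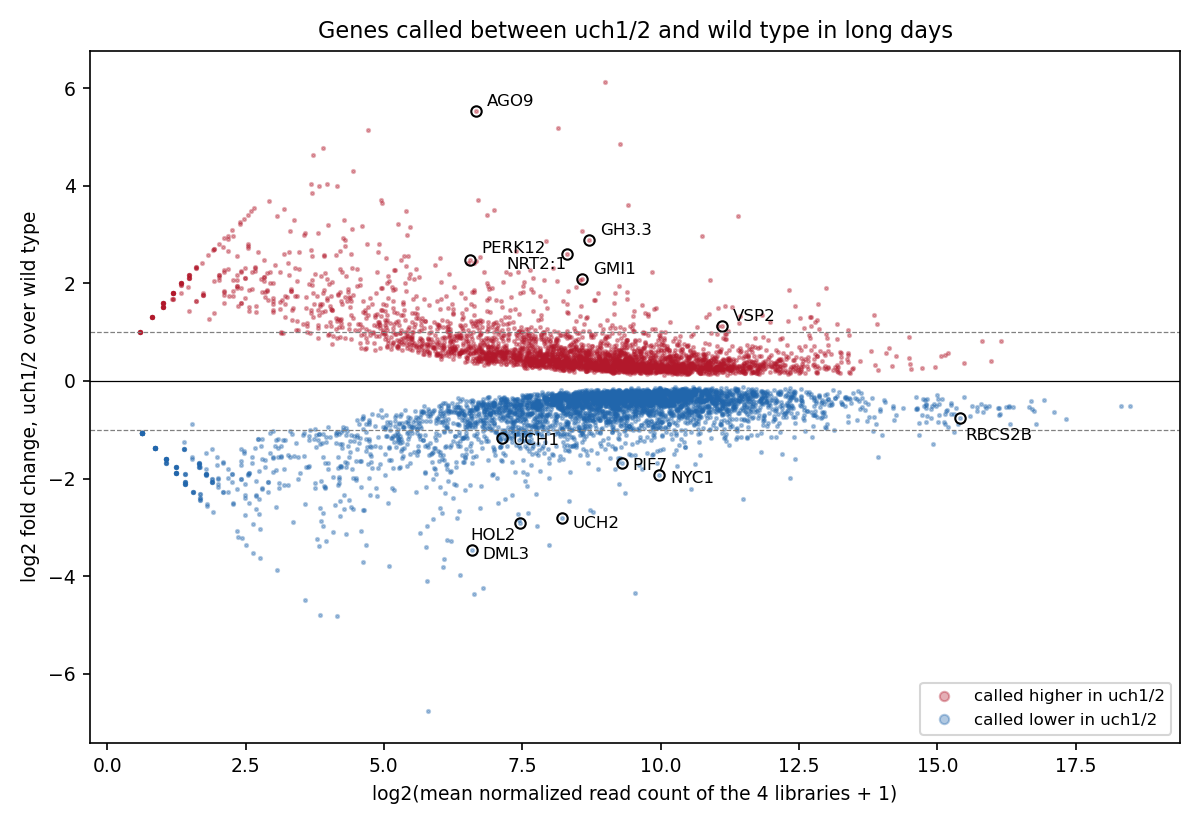
Each point is 1 of the 7301 genes called, with the log2 of its mean normalized read count over the 4 libraries plus 1 on the horizontal axis and its log2 fold change, uch1/2 over wild type, on the vertical axis. Red points are the 3288 genes called higher, blue points the 4013 called lower, and dashed lines mark 2-fold changes; circles and names mark 13 of the genes called, among them AGO9 at 5.53 and DML3 at -3.45.

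The strongest rise among the named genes was that of AGO9, an Argonaute gene known for small-RNA silencing in ovules. AGO9 (AT5G21150) had 187 and 209 normalized reads in uch1/2, against 26.5 and 20.2 in nfrkb1/2/3, 30.6 and 30.4 in ino80 and 3.31 and 3.3 in wild type (log2 fold change 5.53, SE 0.40, adjusted p = 1.2e-09). Its transcript was thus low in wild type, intermediate in both other mutants and highest in uch1/2. The difference from wild type was 5.86 on the log2 scale in short days of the same table and 7.42 in the second table.

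DIN11, a dark-inducible dioxygenase gene, was also among the leading rises, with 255 and 208 normalized reads in uch1/2, against 26.1 and 14.5 in wild type (log2 fold change 3.5, SE 0.70, adjusted p = 5.2e-04). GH3.3, whose enzyme joins auxin to amino acids, had 774 and 699 normalized reads in uch1/2, against 101 and 96.6 in wild type (log2 fold change 2.88, SE 0.33, adjusted p = 8.8e-07). NRT2:1, the main high-affinity nitrate transporter of roots, had 538 and 551 normalized reads in uch1/2, against 74.2 and 107 in wild type (log2 fold change 2.60, SE 0.37, adjusted p = 1.3e-05). In all 3 genes both mutant libraries stood well above both wild-type libraries, a separation that the rule for picking these genes requires. PERK12, a proline-rich receptor-like kinase, had 164 and 154 normalized reads in uch1/2, against 32.8 and 23.2 in wild type (log2 fold change 2.48, SE 0.17, adjusted p = 8.1e-10). FAMT, a farnesoic acid methyltransferase gene, had 188 and 235 in uch1/2, against 21.9 and 16.6 in wild type (log2 fold change 3.4). PI (PISTILLATA), a floral homeotic MADS-box gene, had 64.4 and 45.3 in uch1/2, against 10.9 and 6.68 in wild type (log2 fold change 2.52). Genes of pathogen responses formed the rest. PDF1.2b, a defensin gene with near-identical relatives whose reads may be shared, had 77.8 and 74.4 in uch1/2, against 4.47 and 7.61 in wild type (log2 fold change 3.49). PCC1, WRKY38, CRK6 and ALD1 had log2 fold changes of 2.65, 2.60, 2.56 and 2.49. Over these 12 genes the adjusted p of the limma test lay between 8.1e-10 and 0.0029.

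The strongest falls included regulators of chromatin and of development. HDA2, a histone deacetylase gene, had 10.2 and 6.04 normalized reads in uch1/2, against 127 and 121 in wild type (log2 fold change -3.82, SE 0.74, adjusted p = 4.0e-04); its span overlaps FC1, so their reads cannot be told apart without strand. DML3, a DNA glycosylase that removes methylated cytosine, had 17.38 and 13.1 normalized reads in uch1/2, against 175 and 176 in wild type (log2 fold change -3.45, SE 0.22, adjusted p = 1.2e-10). NGA2, a B3-domain factor of leaf margins and the style, had 16.3 and 9.06 normalized reads in uch1/2, against 117 and 135 in wild type (log2 fold change -3.26, SE 0.29, adjusted p = 2.2e-08). Each of these genes was lower in both uch1/2 libraries than in either wild-type library by several-fold. The rule that picked them requires groups that do not overlap. ANNAT7, an annexin gene, had 7.19 and 11.1 in uch1/2, against 146 and 104 in wild type (log2 fold change -3.64). HOL2, a methyltransferase gene, had 44.0 and 37.2 normalized reads in uch1/2, against 315 and 303 in wild type (log2 fold change -2.90, SE 0.18, adjusted p = 8.9e-11). SEP4 and AGL65, MADS-box genes of flowers and pollen, had log2 fold changes of -2.80 and -2.83. OTP84, a chloroplast RNA-editing factor, had 18.4 and 15.1 in uch1/2, against 118 and 111 in wild type (log2 fold change -2.70). CYP71B24, EMB2423 and ABCF2 fell by similar amounts (log2 fold changes -2.72, -3.10 and -3.07), of which EMB2423 overlaps AT3G48475 and ABCF2 overlaps NRPB4. Of the 12 falling genes named here, UCH2 included, all 12 were also called lower in short days of the first table and 11 in the second table; the exception was ABCF2 (0.44). Of the 12 rising genes, 6 were called higher in short days of the first table and 7 in the second. Over all genes tested, 20.6% were called lower and 18.1% higher in short days of the first table. In the second table these shares were 7.37% and 7.13%.

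Genes of photosynthesis were lower as a group. All 25 nuclear genes for photosystem subunits and electron carriers were called lower, with a median log2 fold change of -0.52, against a median close to 0 over all genes tested and 15.7% called lower. Of 19 genes for the light-harvesting antenna, which binds chlorophyll and feeds the photosystems, 18 were called lower and 0 higher (median -0.55). All 5 genes for the small subunit of Rubisco and for Rubisco activase were called lower (median -0.58). CAB3 (LHCB1.2) had 76170 and 81842 normalized reads in uch1/2, against 144288 and 147908 in wild type (log2 fold change -0.89, SE 0.12, adjusted p = 9.1e-06), and LHCB2.2 had 29210.4 and 30747 normalized reads in uch1/2, against 57269.7 and 53520.3 in wild type (log2 fold change -0.89, SE 0.12, adjusted p = 6.1e-06). LHCB1 and LHCB2 genes are near-identical copies, so their single values are uncertain. PSAD-1, a subunit on the stromal side of photosystem I, had 51886 and 58622 normalized reads in uch1/2, against 87888 and 87916 in wild type (log2 fold change -0.67, SE 0.11, adjusted p = 5.1e-05). RCA, the activase gene, which overlaps AT2G39725, had 113572 and 126075 normalized reads in uch1/2, against 215468 and 198146 in wild type (log2 fold change -0.79, SE 0.14, adjusted p = 2.2e-04). RBCS2B, a Rubisco small-subunit gene, had 31416 and 33497 normalized reads in uch1/2, against 56536 and 53144 in wild type (log2 fold change -0.76, SE 0.12, adjusted p = 3.4e-05).

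These decreases depended partly on how the most abundant transcripts were scaled. Under quantile normalization, which forces the libraries to 1 distribution, 13 of the photosystem genes, 7 of the antenna genes and 2 of the Rubisco genes remained called lower. RCA then had a log2 fold change of 0 (adjusted p = 1), and PSAD-1 had -0.19 (adjusted p = 0.071). As a share of all normalized reads, antenna genes made up 5.87% and 6.05% in uch1/2, against 6.15% and 5.90% in nfrkb1/2/3, 5.11% and 5.13% in ino80 and 8.08% and 8.18% in wild type. Photosystem genes made up 3.87% and 4.02% in uch1/2, against 3.91% and 3.78% in nfrkb1/2/3, 3.73% and 3.73% in ino80 and 5.31% and 5.29% in wild type. The Rubisco genes made up 2.49% and 2.67% in uch1/2, against 2.55% and 2.43% in nfrkb1/2/3, 2.77% and 2.59% in ino80 and 3.51% and 3.63% in wild type. In each of the 3 lists the wild-type shares lay above those of all 6 mutant libraries. Markers of mesophyll, the main photosynthetic tissue, moved with them: all 8 were called lower (median -0.68; 5 without the first uch1/2 library), none was at 0, and their sums were 786419 and 850689 normalized reads in uch1/2, against 1226600 and 1259490 in wild type. These markers are not a separate set: LHCB1.3 and CAB3 are also in the antenna list, RBCS1A in the Rubisco list and GLK1 among the regulators of greening. Their agreement with those lists is thus partly built in. In whole seedlings, fewer cells of a type and less RNA per cell cannot be told apart, and the part of tissue makeup in the result was not tested.

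**Figure D3:**
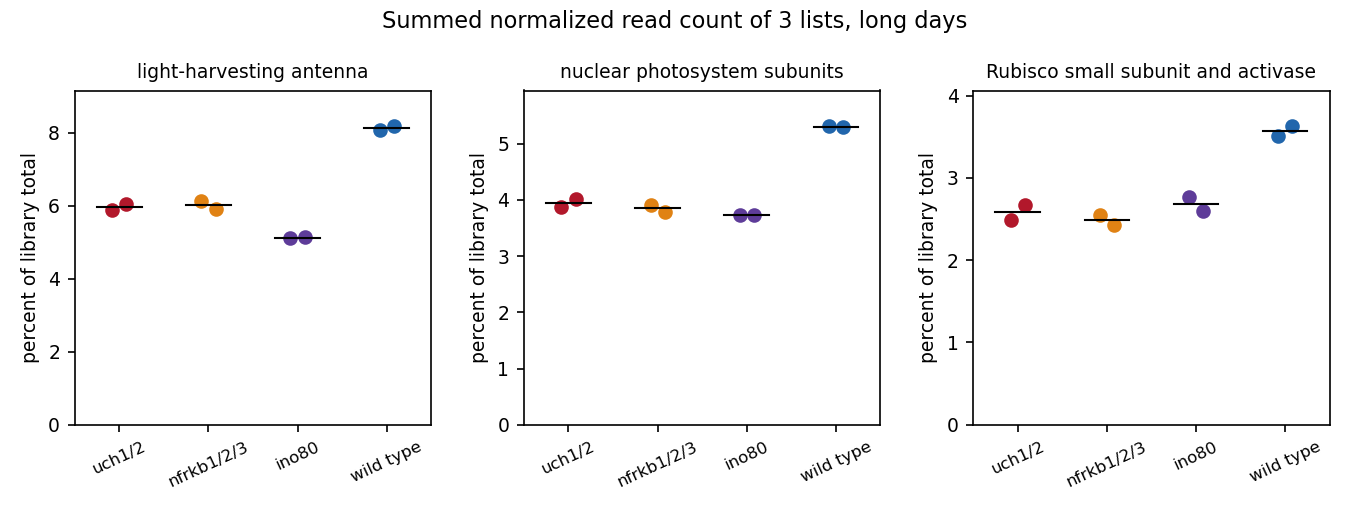
Share of all normalized reads, in percent, taken by antenna, photosystem and Rubisco genes in each long-day library. Each point is 1 library; the short line is the mean of 2 libraries, and wild type lies above all 3 mutants in every panel, for example at 8.08% and 8.18% of reads for the antenna, against 5.87% and 6.05% in uch1/2.

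Promoters of these genes were searched for GATAAG, the core letters bound by GATA factors, on both strands, in the 250 bases before each start. These letters were among several motifs searched, and a part of GATA factors in the values was not tested. GATAAG occurred in 7 of 25 photosystem promoters (28%), 4 of 19 antenna promoters (21.1%) and 2 of 5 Rubisco promoters (40%), against 12.3% of 23743 tested protein-coding genes. It also occurred in 5 of 20 heat shock promoters (25%) and 4 of 35 proteasome promoters (11.4%). A share above that of all genes was thus not particular to the lowered lists. The letters CACGTG, the G-box core, occurred in 4 antenna promoters (21.1%), 4 photosystem promoters (16%) and 1 Rubisco promoter (20%), against 7.08% of the tested protein-coding genes. GATAAG occurred in 10.8% of the promoters of genes at least 2-fold higher and in 15.4% of those at least 2-fold lower. The promoters of RBCS2B (chr5:15382072-15382321, minus strand) and PSAD-1 (chr4:1230165-1230414, minus strand) of the RefSeq TAIR10.1 genome are shown as examples from the called genes with these letters, read 5′ to 3′ in the direction of the gene. Capitals mark the matches, of which RBCS2B has 3, 1 of them as the reverse complement CTTATC, and PSAD-1 has 1. A match of letters describes the sequence and is not a site of binding.
RBCS2B: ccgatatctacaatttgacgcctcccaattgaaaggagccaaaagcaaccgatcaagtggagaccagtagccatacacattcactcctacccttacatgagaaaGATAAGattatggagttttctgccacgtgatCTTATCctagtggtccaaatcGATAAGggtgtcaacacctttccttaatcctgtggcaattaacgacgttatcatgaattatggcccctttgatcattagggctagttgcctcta
PSAD-1: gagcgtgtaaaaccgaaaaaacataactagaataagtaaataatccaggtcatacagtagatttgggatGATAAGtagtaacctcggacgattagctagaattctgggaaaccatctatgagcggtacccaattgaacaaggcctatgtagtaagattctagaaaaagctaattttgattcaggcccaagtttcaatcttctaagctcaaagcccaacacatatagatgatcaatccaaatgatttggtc

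Many genes of chlorophyll synthesis and greening were lower too. Of 23 chlorophyll biosynthesis genes, 11 were called lower and 1 higher (median -0.26), and 6 were lower without the first uch1/2 library and 7 without the second wild-type library. CH1, which makes chlorophyll b and overlaps AT1G44414, had 5254 and 6331 normalized reads in uch1/2, against 10771 and 10403 in wild type (log2 fold change -0.88, SE 0.12, adjusted p = 1.1e-05). Of 14 regulators of greening, 10 were lower and 0 higher (median -0.43), and 4 were lower without the first uch1/2 library. SIG2, a sigma factor of the chloroplast RNA polymerase, had 1219.9 and 1149 normalized reads in uch1/2, against 2592 and 2710.1 in wild type (log2 fold change -1.16, SE 0.08, adjusted p = 1.2e-09). GLK2, a main activator of chloroplast genes, had 2109 and 2683 normalized reads in uch1/2, against 4252 and 3842 in wild type (log2 fold change -0.76, SE 0.13, adjusted p = 1.3e-04). CGA1, a GATA factor, had 47.1 and 56.3 in uch1/2, against 140.1 and 98.3 in wild type (log2 fold change -1.17). NYC1, which starts the breakdown of chlorophyll b, was among the most clearly lowered genes, with 422 and 413 normalized reads in uch1/2, against 1621 and 1580.2 in wild type (log2 fold change -1.94, SE 0.10, adjusted p = 9.3e-12).

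Genes that sense light were mostly lower, and clock genes changed in both directions. Of 22 photoreceptor, PIF and COP1/SPA genes, 16 were lower and 0 higher (median -0.42). PIF7, a bHLH factor of shade responses that overlaps AT5G61260, had 328 and 271 normalized reads in uch1/2, against 987 and 926 in wild type (log2 fold change -1.68, SE 0.13, adjusted p = 3.8e-09). HFR1, an atypical bHLH factor that restrains PIF activity, had 174 and 159 normalized reads in uch1/2, against 511 and 382 in wild type (log2 fold change -1.4, SE 0.20, adjusted p = 1.2e-05). PIF4 and PHOT2 were lower as well (log2 fold changes -0.74 and -0.70). Of 21 clock genes, 9 were lower and 3 higher (median -0.25), with 1 higher without the first uch1/2 library. The morning genes CCA1 and LHY fell together: CCA1 had 823 and 1157 normalized reads in uch1/2, against 2556 and 2127 in wild type (log2 fold change -1.26, SE 0.13, adjusted p = 1.8e-07), and LHY had 819 and 802 normalized reads in uch1/2, against 1543 and 1342 in wild type (log2 fold change -0.83, SE 0.09, adjusted p = 2.8e-07). RVE8, a related morning factor, had a log2 fold change of -0.95. The evening gene GI rose, with 1279 and 1421 normalized reads in uch1/2, against 1017 and 916 in wild type (log2 fold change 0.48, SE 0.07, adjusted p = 2.8e-05). The hour of harvest is not given in the labels, and its part in the clock values was not tested.

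Flowering regulators moved in both directions. Of 28 flowering-time genes, 9 were lower and 3 higher (median -0.31). AGL20 (SOC1), a promoter of flowering, had 165 and 270.4 normalized reads in uch1/2, against 569 and 548 in wild type (log2 fold change -1.4, SE 0.24, adjusted p = 9.1e-05). AGL24, a MADS-box partner of SOC1, had 4.11 and 6.03 in uch1/2, against 39.4 and 30.9 in wild type (log2 fold change -2.58). SPL9, an age-dependent activator, had 66.6 and 73.4 in uch1/2, against 187 and 174 in wild type (log2 fold change -1.35). The repressor MAF5, a relative of FLC, was higher, with 339.7 and 308 normalized reads in uch1/2, against 81.6 and 101 in wild type (log2 fold change 1.82, SE 0.25, adjusted p = 9.1e-06). Of 11 floral organ MADS-box genes, PI and SEP3 were higher and SEP4 was lower. SEP3, a floral organ identity gene, had 818 and 643 normalized reads in uch1/2, against 223 and 193 in wild type (log2 fold change 1.80, SE 0.28, adjusted p = 3.1e-05).

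Among auxin-responsive genes, more were called higher than lower. Of 24 of them, 13 were called higher and 1 lower (median 0.45), against 12.8% of all genes called higher. With the 4 libraries fitted alone, 8 were higher and 0 lower, and 2 were lower without the second wild-type library. IAA29, an Aux/IAA repressor gene induced by auxin and shade, had 238 and 261 normalized reads in uch1/2, against 87.1 and 104 in wild type (log2 fold change 1.38, SE 0.17, adjusted p = 2.8e-06). IAA2 had 2384 and 2194 normalized reads in uch1/2, against 1549 and 1658 in wild type (log2 fold change 0.51, SE 0.07, adjusted p = 1.0e-05). The amino-acid conjugases WES1 (GH3.5) and BRU6 (GH3.2) rose with GH3.3 (log2 fold changes 0.79 and 0.70). IAA13, which overlaps AT2G33300, was the member called lower (-0.41). Of 21 genes of auxin transport and synthesis, 3 were higher and 2 lower (median 0.11). The synthesis enzyme YUC9 had 351 and 370 normalized reads in uch1/2, against 204 and 239.9 in wild type (log2 fold change 0.70, SE 0.17, adjusted p = 0.0029), while the carriers PIN4 and AUX1 were lower (log2 fold changes -0.65 and -0.42). Of 22 genes of shoot branching and organ boundaries, 5 were higher and 3 lower (median -0.08). Those counts were thin: 1 was higher without the first uch1/2 library or the second wild-type library, and 3 were higher and 5 lower without the second uch1/2 library. NGA2 and NGA3 were the largest falls of that list (-3.26 and -0.87), and CLV1, a receptor that limits stem cells, was lower by a smaller amount (-0.48).

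Defence genes rose in several lists, beside 12.8% of all genes called higher. Of 29 jasmonate genes, 14 were higher and 1 lower (median 0.69), with 9 higher without the first wild-type library; 0 were lower without the first uch1/2 library and 2 without the second wild-type library. AOC2, an allene oxide cyclase of jasmonate synthesis, had 8213.5 and 8573 normalized reads in uch1/2, against 4016 and 3899.8 in wild type (log2 fold change 1.08, SE 0.19, adjusted p = 1.7e-04). VSP2, a storage protein induced by wounding, had 3092 and 2951 normalized reads in uch1/2, against 1485 and 1289.8 in wild type (log2 fold change 1.13, SE 0.24, adjusted p = 0.0012). Of 24 genes of salicylic acid immunity, 12 were higher and 0 lower (median 0.46), with 6 higher when the 4 libraries were fitted alone and 1 lower without the first wild-type library. SARD1, a master transcription factor of this pathway, had 174 and 134 normalized reads in uch1/2, against 25.4 and 30.6 in wild type (log2 fold change 2.41, SE 0.35, adjusted p = 1.4e-05). FMO1 and ALD1, enzymes of N-hydroxypipecolic acid synthesis, had log2 fold changes of 2.09 and 2.49, and BGL2 (PR2), a glucanase, had 2.31. Of 23 ethylene genes, 7 were higher and 3 lower (median 0.15), with 4 higher when either wild-type library was left out and 0 lower without the first uch1/2 library.

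Glucosinolate genes split. Of 24, 4 were higher and 10 lower (median -0.14), and 6 were lower without the first uch1/2 library and 5 with equal library sums or without the first wild-type library. MYB51, an activator of the indolic branch, had 813 and 825 normalized reads in uch1/2, against 277 and 362 in wild type (log2 fold change 1.37, SE 0.16, adjusted p = 1.3e-06), and CYP83B1 of that branch was higher too (0.57). MYB34, another indolic regulator, was lower (-0.63), as was CYP83A1 of the aliphatic branch (-0.46). TGG2, a myrosinase, had 10147 and 12032 normalized reads in uch1/2, against 19585 and 17404 in wild type (log2 fold change -0.74, SE 0.10, adjusted p = 1.2e-05). The higher count of this list was 2 without the second uch1/2 library or the second wild-type library.

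**Figure D4:**
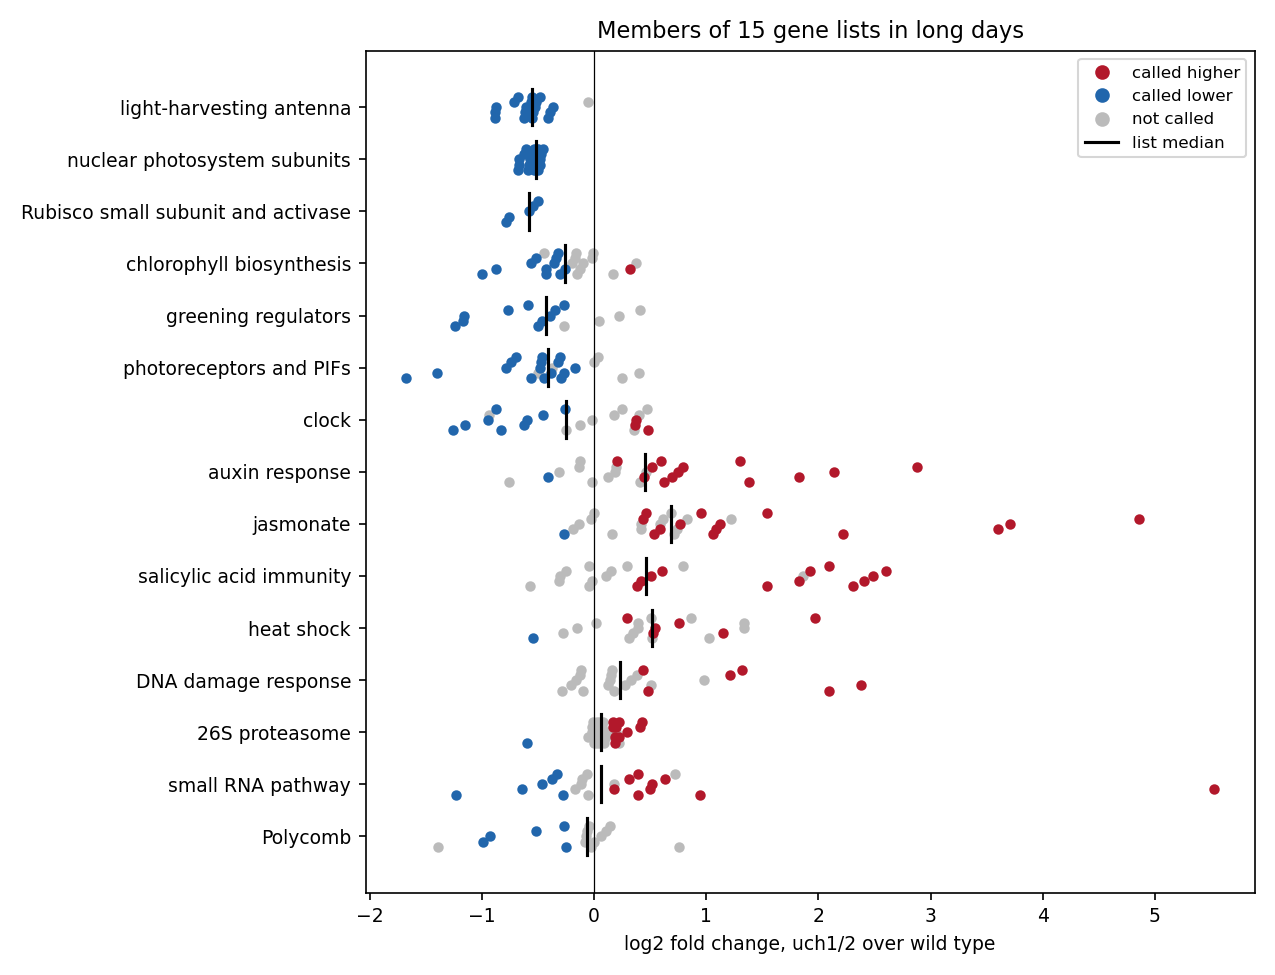
Log2 fold change, uch1/2 over wild type, of each measured member of 15 gene lists, 1 point a gene. Red points were called higher, blue lower and grey not called, and the black line is the list median; photosynthesis lists lie left of 0 (medians -0.55, -0.52 and -0.58), and auxin and jasmonate medians lie to the right (0.45 and 0.69).

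Chromatin and small-RNA lists held a few large changes rather than a shared direction. Of 17 genes of DNA methylation, 4 were lower and 2 higher (median 0.08), with 1 higher without the second wild-type library. Of 4 demethylase genes, 3 fell and DME did not pass the test (-0.08). Besides DML3, DML2 had 100.2 and 78.4 normalized reads in uch1/2, against 273 and 275 in wild type (log2 fold change -1.62, SE 0.17, adjusted p = 2.3e-07) and DML1 (ROS1) had 657 and 681 normalized reads in uch1/2, against 902 and 884 in wild type (log2 fold change -0.42, SE 0.09, adjusted p = 7.4e-04). CMT2, a methyltransferase of CHH sites, was lower (-0.54), and VIM3, a methylcytosine-binding E3 ligase, was higher, with 303 and 351 normalized reads in uch1/2, against 197 and 214 in wild type (log2 fold change 0.67, SE 0.10, adjusted p = 3.9e-05). Of 16 Polycomb genes, 5 were lower and 0 higher (median -0.07), against 15.7% of all genes called lower. DRIP2 (BMI1A) had 85.0 and 108 normalized reads in uch1/2, against 178 and 206 in wild type (log2 fold change -0.995, SE 0.13, adjusted p = 3.9e-06), and RING1B, which overlaps TPX2, had 79.8 and 69.4 in uch1/2, against 139 and 147 in wild type (log2 fold change -0.93). EMF1 and the methyltransferase SWN were lower by less (-0.52 and -0.27). Of 13 genes of H3K4 and H3K36 methylation, 4 were lower and 1, SDG16, was higher (median -0.07); 2 were lower with equal library sums or without the second wild-type library, and 1 without the first uch1/2 library. ATX2 was the clearest fall of that list (-0.50). For SWR1 and H2A.Z, 2 of 9 genes were lower (median -0.11), with 0 when library sums were equal or without the first uch1/2 or the second wild-type library, and 1 without either remaining library.

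In the small-RNA pathway, 9 of 22 genes were higher and 6 lower (median 0.06). The higher count was 5 without the second uch1/2 library and 4 without the first wild-type library, and the lower count was 3 without the second wild-type library. SGS3, which protects templates of RDR6, was higher, with 711 and 796 normalized reads in uch1/2, against 469.6 and 505 in wild type (log2 fold change 0.63, SE 0.12, adjusted p = 4.9e-04). RDR6, its polymerase partner, was lower, with 477 and 476 normalized reads in uch1/2, against 669 and 645 in wild type (log2 fold change -0.46, SE 0.07, adjusted p = 3.9e-05). AGO7, which starts trans-acting siRNA production with miR390, had 109 and 125 normalized reads in uch1/2, against 292 and 258 in wild type (log2 fold change -1.23, SE 0.17, adjusted p = 8.5e-06). DCL1, the Dicer of miRNAs, which overlaps 3 annotated genes including MIR838, had 626 and 633 normalized reads in uch1/2, against 988 and 983 in wild type (log2 fold change -0.65, SE 0.10, adjusted p = 4.6e-05). The antiviral genes AGO2 and RDR1 were higher (0.52 and 0.39). Within 1 pathway, partners thus differed in direction.

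Among DNA damage genes, 6 of 22 were higher and 0 lower (median 0.23), against 12.8% of all genes called higher. GMI1, a gene strongly induced by DNA breaks that overlaps the long noncoding AT5G03735, had 608 and 633 normalized reads in uch1/2, against 132 and 158 in wild type (log2 fold change 2.1, SE 0.16, adjusted p = 3.5e-09). NAC044, a target of the damage regulator SOG1, had 98.3 and 105 normalized reads in uch1/2, against 18.7 and 18.7 in wild type (log2 fold change 2.38, SE 0.34, adjusted p = 1.1e-05). SOG1 itself was higher by a smaller amount, with 313 and 296 in uch1/2, against 237 and 199 in wild type (log2 fold change 0.48). Of 27 genes of DNA replication and mitosis, 1 was higher and 1 lower (median 0.14), and 0 in either direction without the first uch1/2 library.

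Proteasome genes, of interest because the animal relative binds this particle, mostly did not pass the test. Of 35 subunit genes, 10 were higher and 1 lower (median 0.06), against 12.8% of all genes called higher; with equal library sums 23 were higher and 0 lower. The higher count was 2 with the 4 libraries fitted alone, 4 without the first uch1/2 library, 6 without the first wild-type library and 4 without the second, and the lower count was 0 without the second library of either genotype. The largest rises were in core-particle subunits: PAD2, an alpha subunit that overlaps ATRAD17, had 1301 and 1278 normalized reads in uch1/2, against 940 and 1005 in wild type (log2 fold change 0.41, SE 0.05, adjusted p = 1.6e-06), and PBD2, a beta subunit that overlaps ATSUV3, had 1061 and 1051 normalized reads in uch1/2, against 740.1 and 836 in wild type (log2 fold change 0.42, SE 0.06, adjusted p = 1.2e-05). Of 27 ubiquitin-specific proteases, 3 were higher and 2 lower (median 0.03), and 10 were higher and 1 lower with equal library sums; 1 was higher without the first uch1/2 library or without either wild-type library. UBP26, which acts on histone H2B, had 908 and 926 normalized reads in uch1/2, against 671 and 732 in wild type (log2 fold change 0.39, SE 0.06, adjusted p = 5.7e-05). UBP7, which overlaps AT3G21290, had 130 and 121 normalized reads in uch1/2, against 271 and 255 in wild type (log2 fold change -1.06, SE 0.12, adjusted p = 3.7e-07). The letters TGGGCC occurred on either strand in 15 of 35 proteasome promoters (42.9%), against 14.9% of all tested protein-coding genes. They also occurred in 35% of heat shock and 24% of photosystem promoters, but in 5.26% of antenna and 0% of Rubisco promoters. The promoter of PAD2 (chr5:26438772-26439021, minus strand, RefSeq TAIR10.1) is shown as an example. Its 2 matches are in capitals, the second as the reverse complement GGCCCA.
PAD2: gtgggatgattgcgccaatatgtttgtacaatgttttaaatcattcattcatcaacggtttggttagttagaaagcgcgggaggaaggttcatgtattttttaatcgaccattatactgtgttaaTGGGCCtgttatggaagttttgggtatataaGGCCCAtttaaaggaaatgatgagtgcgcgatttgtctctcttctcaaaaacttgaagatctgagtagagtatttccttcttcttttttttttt

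Heat shock genes leaned upward in long days, where 12.8% of all genes were called higher and 15.7% lower. The lean was thin, with 2 list members called higher when the 4 libraries were fitted alone. Of 20, 6 were higher and 1 lower (median 0.51), with 3 higher when either wild-type library was left out, and 0 lower without the first uch1/2 library or either wild-type library. HSP90.1, an inducible chaperone, had 655 and 882 normalized reads in uch1/2, against 355 and 330.5 in wild type (log2 fold change 1.15, SE 0.18, adjusted p = 3.9e-05). Fes1A, a cochaperone of HSP70 that overlaps a long noncoding gene, had 377 and 496 normalized reads in uch1/2, against 249.6 and 261 in wild type (log2 fold change 0.76, SE 0.14, adjusted p = 2.0e-04). The letters GAANNTTC, the core of heat shock elements, occurred on either strand in 13.7% of promoters of genes at least 2-fold higher and in 7.76% of those at least 2-fold lower, against 9.45% of all tested protein-coding genes. They occurred in 5 of 20 heat shock promoters (25%), 1 of 5 Rubisco promoters (20%) and 5 of 35 proteasome promoters (14.3%). In antenna and photosystem promoters the shares were 5.26% and 0%. A part of heat shock factors in the values was not tested.

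Nutrient genes changed singly. Of 18 nitrogen genes, 7 were higher and 2 lower (median 0.20), with 3 higher without the second wild-type library and 1 lower without the second uch1/2 library or either wild-type library. BT2, a BTB-domain regulator of nitrogen use, had 878 and 1047 normalized reads in uch1/2, against 215 and 290 in wild type (log2 fold change 1.94, SE 0.33, adjusted p = 8.6e-05), and ACR1, an ACT-domain protein gene, had 85.2 and 162 in uch1/2, against 372 and 389 in wild type (log2 fold change -1.69). Of 23 iron-deficiency genes, 4 were higher and 6 lower (median 0.09). FRO5, a metal reductase, had 457 and 436 normalized reads in uch1/2, against 136 and 85.2 in wild type (log2 fold change 2.05, SE 0.29, adjusted p = 1.2e-05), and NAS2, a nicotianamine synthase, had 512 and 436 normalized reads in uch1/2, against 174 and 141 in wild type (log2 fold change 1.59, SE 0.21, adjusted p = 4.2e-06). Its relative NAS1 and the iron regulator BTS were lower (-0.58 and -0.70). Of 15 phosphate-starvation genes, 2 were higher, with 1 without the first uch1/2 library and 0 without the first wild-type library. Of 22 genes of abscisic acid and cold responses, 1 was lower, with 0 without the first uch1/2 library and 6 without the second. Of 20 flavonoid genes, 2 were higher and 3 lower, with 0 higher without the first library of either genotype and 1 higher without the second uch1/2 library; among the lower ones was the repressor MYBL2 with 688 and 797 normalized reads in uch1/2, against 2017 and 1676 in wild type (log2 fold change -1.31, SE 0.20, adjusted p = 2.7e-05).

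Most markers of other cell types did not pass the test. Of 17 root markers, 0 were higher and 1, SCR, was lower (-0.46), and the sums were 5867 and 5403 normalized reads in uch1/2, against 5702 and 5298 in wild type. Of 11 guard cell markers, 4 were lower (median -0.44), with sums of 2563 and 2648 in uch1/2, against 4001 and 4077 in wild type. Among the guard cell genes, SCRM2, a bHLH factor of the stomatal lineage, had 564 and 649 normalized reads in uch1/2, against 1169 and 1094 in wild type (log2 fold change -0.90, SE 0.12, adjusted p = 3.8e-06), and the potassium channel gene KAT1 had 753 and 726 normalized reads in uch1/2, against 1226 and 1415 in wild type (log2 fold change -0.83, SE 0.15, adjusted p = 2.2e-04). Of 9 trichome markers, 3 were lower, and 1 without the first uch1/2 library. Of 12 phloem and xylem markers, 1 was higher, the sugar exporter SWEET12 (0.91), and 2 were lower, with 0 lower without the first uch1/2 library and 1 without the second wild-type library. Seed and embryo markers summed to 100.3 and 531 normalized reads in uch1/2, against 41.3 and 94.2 in wild type, with the higher sum in the second repeat of these 2 genotypes; OLEO4 was the 1 member called higher (1.496) and LEC2, a regulator of embryo identity, the 1 called lower (-1.77). Neither was called with the 4 libraries fitted alone. LEC2 also lost its call without the first uch1/2 library and without either wild-type library.

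Against the other mutants, uch1/2 differed in few genes. Compared with nfrkb1/2/3, 80 genes were called (0.312%), 45 higher (0.176%) and 35 lower (0.137%) in uch1/2. Compared with ino80, 340 were called (1.33%), 156 higher (0.608%) and 184 lower (0.718%). Both counts moved when 1 library was left out. The count against nfrkb1/2/3 was 23 without the first uch1/2 library or the first nfrkb1/2/3 library and 33 without the second nfrkb1/2/3 library. The count against ino80 was 70 without the first uch1/2 library, 38 without the first ino80 library and 196 without the second. A p that misses the threshold does not show that the mutants act alike, and at an unadjusted p under 0.05 the counts were 2968 against nfrkb1/2/3 and 3604 against ino80. All 3 mutants were compared with the same wild-type libraries.

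Of 25638 genes tested, 20 were called in 1 direction in uch1/2 against wild type, ino80 and nfrkb1/2/3. All 3 contrasts use the same 2 uch1/2 libraries, so agreement in direction is partly built in. The 20 genes lie on chromosomes 1 (5 genes), 3 (5), 4 (4) and 5 (6), and the number tested on each chromosome was not counted. UCH1 and UCH2 were 2 of the 20. AGO9 and SGS3 were higher: AGO9 by 2.66 against ino80 (adjusted p = 0.0011) and by 3.04 against nfrkb1/2/3 (adjusted p = 2.4e-04) on the log2 scale. SGS3 had 711 and 796 normalized reads in uch1/2, against 308 and 318 in nfrkb1/2/3, 234 and 215 in ino80 and 469.6 and 505 in wild type, so both other mutants lay below wild type for this gene. Both genes lie on chromosome 5 as UCH1 does, AGO9 at 1.85 Mb and SGS3 at 2.6 Mb from it. AT5G22820, also in this set, lies between them at 2.28 Mb. AT4G06115 and AT4G13575 of the set start at 7888862 and 7890249 on chromosome 4, which holds neither UCH1 nor UCH2. The part of linked sequence in these values was not tested. CYCB1;5, a B-type cyclin gene that overlaps the long noncoding AT1G06757, had 119.7 and 117 normalized reads in uch1/2, against 24.6 and 18.3 in nfrkb1/2/3, 14.8 and 10.8 in ino80 and 21.1 and 29.5 in wild type (log2 fold change from wild type 2.2). The calls of AGO9, SGS3 and CYCB1;5 against both mutants held when any 1 library of the pair compared was left out.

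The other named genes of this set were less certain. HEI10, a crossover factor of meiosis that overlaps MRD1 and MUM4, had 128 and 142 normalized reads in uch1/2, against 58.9 and 79.1 in nfrkb1/2/3, 83.1 and 58.9 in ino80 and 43.8 and 37.4 in wild type. UPL6, a HECT ubiquitin ligase gene, had 1497 and 1474 normalized reads in uch1/2, against 1217 and 1225 in nfrkb1/2/3, 1265 and 1236 in ino80 and 1307 and 1301 in wild type. AGL19, a MADS-box activator of flowering, had 9.23 and 12.1 normalized reads in uch1/2, against 26.5 and 22.1 in nfrkb1/2/3, 22.7 and 22.6 in ino80 and 38.3 and 32.0 in wild type. Each kept its call against wild type when 1 library was left out, but each lost at least 1 call against ino80 and against nfrkb1/2/3, with adjusted p as high as 0.18 and 0.24 for HEI10, 0.11 and 0.12 for UPL6 and 0.24 and 0.31 for AGL19. For all 3 genes, the first uch1/2 library was 1 of those whose removal ended the call. The second uch1/2 library did so for HEI10, the first nfrkb1/2/3 library for all 3, the second nfrkb1/2/3 library for UPL6 and AGL19, the first ino80 library for UPL6 and AGL19, and the second ino80 library for all 3. LBD26, a LOB-domain gene, had 9.20 and 7.04 normalized reads in uch1/2, against 64.8 and 76.2 in nfrkb1/2/3, 26.7 and 30.5 in ino80 and 40.5 and 29.8 in wild type; its call against ino80 was lost without any 1 of the 4 libraries compared (adjusted p up to 0.17), and its call against nfrkb1/2/3 held.

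The effect of the double mutation was set against that in short days. Day length and age differ together between these groups, since short-day seedlings of the first table were 14 days old, and cannot be told apart. In short days, 9934 genes of the first table were called between uch1/2 and wild type (38.7%), 4644 higher (18.1%) and 5290 lower (20.6%). The difference between the short-day and the long-day effect, tested as an interaction, was called in 2496 genes (9.74%), 1208 with a higher effect in short days (4.71%) and 1288 with a lower one (5.02%). Without the second short-day wild-type library it was called in 1256 genes, without the second long-day uch1/2 library in 1413, without the second short-day uch1/2 library in 1436, without the second long-day wild-type library in 1565 and without the first in 1637. In the second table, 3548 genes were called between short-day uch1/2 and wild type (14.5%), 1745 higher (7.13%) and 1803 lower (7.37%).

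Heat shock genes moved differently in the 2 day lengths. In long days 6 of 20 were higher and 1 lower, whereas 1 was higher and 13 were lower in short days of the first table (median -0.82), and 11 of 20 were called lower in the interaction (median -1.13). HSP90.1 had an interaction of -1.45 and Fes1A of -1.11 on the log2 scale (adjusted p = 0.001 and 0.001). The second table gave another picture in short days, with 5 of 20 higher and 0 lower (median 0.25). Root markers, of which 0 were higher in long days, were higher in short days, 14 of 17 in the first table and 9 of 17 in the second, and 8 were higher and 1 lower in the interaction. Of the auxin-responsive genes, 10 of 24 were called lower and 1 higher in the interaction. GH3.3, at -2.55 in the interaction (adjusted p = 0.0016), had a log2 fold change of 2.88 in long days and 0.33 in short days. BT2, with 1.94 in long days and -0.98 in short days, was called in opposite directions.

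**Figure D5:**
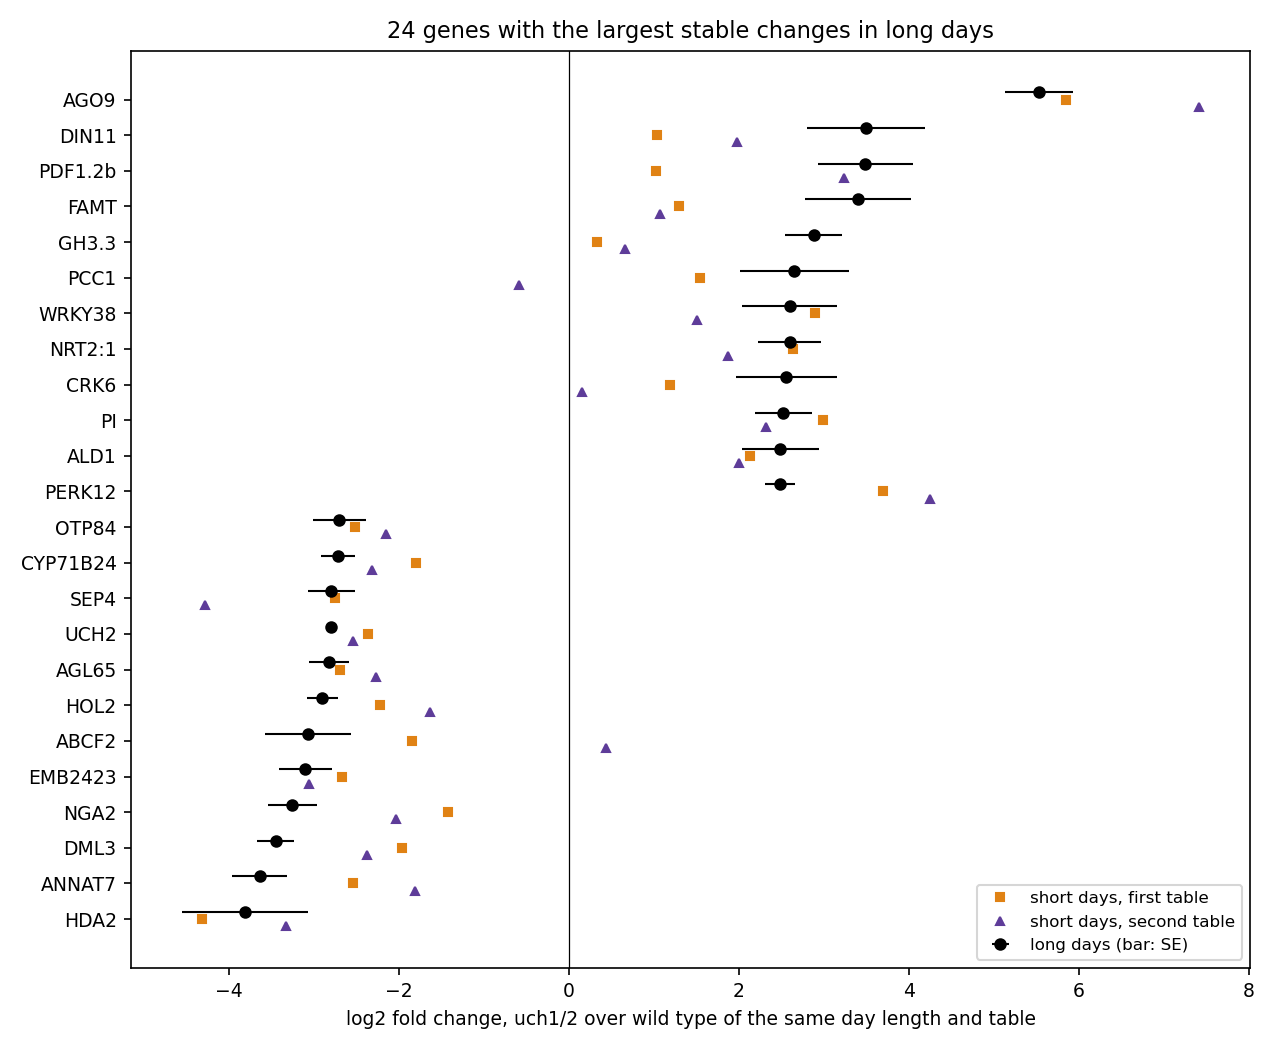
Log2 fold change of uch1/2 over wild type for the 24 named genes with the largest changes in long days: black circles with SE bars for long days, orange squares for short days of the first table and purple triangles for short days of the second table. AGO9 lies at 5.53, 5.86 and 7.42 and GH3.3 at 2.88, 0.33 and 0.66, while all 12 falling genes lie left of 0 in both conditions of the first table.

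The second table, whose short-day libraries are separate from all others used here, shared some of the long-day changes. Of the 658 genes at least 2-fold higher in long days, 219 were called higher there and 5 lower, which is 33.3% of those genes and 12.6% of the 1745 called higher in that table, where 7.13% of all genes were higher. Of the 805 genes at least 2-fold lower, 352 were called lower there and 6 higher, which is 43.7% of those genes and 19.5% of the 1803 called lower, where 7.37% of all genes were lower. Photosystem genes were lower again, 22 of 25, and antenna genes in 13 of 19 with 1 higher. Of the 5 Rubisco genes limma called 0 there. In related lists, 4 of 23 genes were lower for chlorophyll synthesis, 1 of 14 for greening and 3 of 21 for the clock. For photoreceptor, PIF and COP1/SPA genes it was 5 of 22, and 0 were higher in each of these lists. These counts stand beside 7.37% of all genes called lower. The second table called 14.5% of its genes, against 28.5% in long days, so lower counts there do not show a smaller effect. Among 24 genes of salicylic acid immunity, 3 were higher and 3 lower, and among 29 jasmonate genes 7 were higher and 1 lower. Of the DNA damage genes, 6 were higher in the second table too, with GMI1 at 2.79 and NAC044 at 1.4 on the log2 scale. SDG16 had 1.2, PERK12 had 4.25 and SEP3 had 2.2.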

How the data were processed

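Libraries were read as 50-bp single ends, per the labels' protocols. HISAT2 2.2.0, the TAIR10 build and edgeR are named in the submitters' processing notes. The edgeR version, counting program, annotation, strand setting and filters are not given in the sources used here. The deposited values are a signal: normalized read counts, brought by the authors to a similar library size and not whole numbers, for 32548 loci in each of 2 tables (36 and 12 libraries). The unit was read from the values, because no header names it.

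Because the values are not whole counts, log2(value + 1) was tested with limma 3.58.1 in R 4.3.3 (lmFit, eBayes with trend, 1 mean for each of 18 groups, 18 residual degrees of freedom, two-sided). Genes at 1 or more in at least 2 libraries were tested, and p was adjusted by Benjamini-Hochberg over all of them. The second table was fitted alone (24458 genes, 6 residual degrees of freedom). The interaction is the short-day effect minus the long-day effect. The scripts were tested on simulated data.

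Members, gene lists and comparisons were chosen with earlier results of these data known. Genes named were the 12 largest rises and falls with a symbol, a mean of at least 20, groups that do not overlap and a call that held with each library left out (log2 change within 0.58); the UCH family and INO80 list; up to 2 risers and fallers per list; and genes apart from ino80 and nfrkb1/2/3. Other list members called and given with values also kept their call with each library left out, except LEC2. Like all genes named by locus code, these members were picked with values known. Gene names, overlaps and sequences are from RefSeq TAIR10.1. The repeat numbers share only a number: same-numbered uch1/2 and wild-type libraries deviated together with r = 0.096 over 20097 genes. Alternatives were another pseudocount, filters, equal library sums, quantile normalization, fewer libraries, a replicate block and leaving out each library.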

Additional observations from a re-analysis of the deposited data

Results flagged for a closer look

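Of the 119 named genes called in long days, 27 had an effect of the double mutation that differed between short and long days by the limma interaction (adjusted p under 0.05). The interaction was called in 2496 of all 25638 genes tested (9.74%) and in 1042 of the 7301 genes called in long days. Many named genes were picked by the size of their long-day change, which the interaction subtracts. An interaction opposite in sign to that change is thus partly built in. Values are the short-day minus the long-day log2 effect, uch1/2 over wild type in each. Among the leading genes these were PDF1.2b at -2.46, GH3.3 at -2.55, PERK12 at 1.21, DML3 at 1.49, NGA2 at 1.83 and CYP71B24 at 0.93. UCH2 had 0.44, RIN1 had -0.47 and AGL19 had 1.76. Among genes of photosynthesis, light and the clock, RBCS2B had 0.67, HEMA2 -0.52, BBX32 -2.19, CGA1 -1.96, NYC1 -0.86, GI -0.66 and AT3G54500 (LNK2) 0.57. Among hormone and stress genes, IAA5 had -3.5, COI1 -0.29, HSP90.1 -1.45 and Fes1A -1.11. The remaining values were 1.34 for SEP3, 0.92 for ICK1, -2.91 for BT2, -1.84 for IPS1, -1.22 for MYB51, 0.63 for TGG2 and 1.34 for MYB12. Short-day seedlings were also older, so day length and age cannot be told apart.

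For 18 of the 27 genes the interaction kept its call when any 1 of the 8 libraries was left out. HEMA2 lost it without the second long-day uch1/2 library (adjusted p = 0.052). BBX32 lost it without the second long-day library of either genotype (up to 0.092), and RBCS2B and AT3G54500 without 3 of the libraries (up to 0.068 and 0.073). CYP71B24, IPS1, SEP3, COI1 and PDF1.2b lost it without 5, 6, 6, 7 and 8 of the libraries, with adjusted p up to 0.18, 0.18, 0.16, 0.17 and 0.16. In the second table, GH3.3 had a short-day effect of 0.66, BT2 of 0.03, NYC1 of 0.15 and IAA5 of -0.10 on the log2 scale.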

How the results depend on the processing

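No named gene that was called in the main run or in the alternative reversed its direction. Changes of sign in genes called in neither run were not counted. With equal library sums 5647 genes were called higher and 2649 lower. With only the 4 libraries compared, 3327 were called, 1352 higher and 1975 lower. With 1 library left out, the count was 4718 to 6190, with 1961 to 2658 higher, and the counts were 38 to 255 against ino80, 23 to 94 against nfrkb1/2/3, 1256 to 2308 for the interaction and 1688 to 2036 in the second table; an arm of 1 library was assumed to vary like the other groups. A replicate block over all 36 libraries gave 7371 calls, 336 against ino80, 81 against nfrkb1/2/3 and 2558 for the interaction, and 4328 in the second table. With the replicate block and the 4 libraries alone, limma called 0 genes, 0 higher and 0 lower, with 7706 at an unadjusted p under 0.05. The repeat numbers of uch1/2 and nfrkb1/2/3 deviated oppositely (r = -0.42), and a block with crossed numbers gave 83 calls. Of 124 named genes, 24 lost or missed a call without the first uch1/2 library, 12 without the second, 18 without the first wild-type library and 17 without the second, 38 with the 4 libraries fitted alone, 8 with the 18 long-day libraries, 10 with equal library sums and 4 with quantile normalization. With the 4 libraries alone, 38 of 84 counts over the gene lists moved by more than 1.5 times, 37 of them downward; 6 chlorophyll and 6 greening genes were then lower, 5 small-RNA genes higher and 3 lower, and 2 heat shock, 3 ethylene and 4 nitrogen genes higher. Pseudocounts of 0.5 or 5 cost at most 1 of them its call, and other filters at most 3. With 2 libraries a group, small changes and low genes are the least certain.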

Other observations

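Some genes without a symbol changed more than the named ones; they were chosen after their values were seen. AT4G33720, annotated as a CAP superfamily protein, a family that includes pathogenesis-related proteins, had 860 and 1142 normalized reads in uch1/2, against 17.42 and 10.04 in wild type (log2 fold change 6.12, SE 0.35, adjusted p = 3.8e-11). AT1G64795, an uncharacterized protein gene, was listed at 0 in both uch1/2 libraries, against 92.8 and 125.7 in wild type, and it stood at 0 and 1.94 in nfrkb1/2/3 and 2.97 and 0 in ino80. AT1G75945 had 9.22 and 11.1 normalized reads in uch1/2, against 135 and 173 in nfrkb1/2/3, 138 and 174 in ino80 and 197 and 219 in wild type. Both other mutants thus lay between uch1/2 and wild type for this gene. AT3G05945, a long noncoding RNA gene, had 11.3 and 14.1 normalized reads in uch1/2, against 263 and 269 in nfrkb1/2/3, 54.3 and 66.8 in ino80 and 113 and 153.1 in wild type. AT4G13575 had 545 and 603 normalized reads in uch1/2, against 1047 and 1015 in nfrkb1/2/3, 1021 and 854 in ino80 and 1767 and 2089.6 in wild type. The last 3 genes are among the 20 that differed in 1 direction from wild type, ino80 and nfrkb1/2/3.

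A small set of genes was close to silent in 1 genotype, taken as under 5 in both libraries, and at 20 or more in both libraries of the other. There were 12 such genes on in uch1/2 and 12 off in uch1/2. Among those on were CPK22, a calcium-dependent protein kinase gene, with 28.7 and 28.2 normalized reads in uch1/2, against 2.15 and 0.0248 in wild type, and WAKL10, a wall-associated kinase-like gene, with 23.63 and 42.2 normalized reads in uch1/2, against 3.31 and 3.3 in wild type. Their rises were 4.03 and 2.92 on the log2 scale, and both genes were also above wild type in the other mutants, with 14.7 and 33.9 in nfrkb1/2/3 and 8.89 and 9.82 in ino80 for CPK22. Among those off were ARR15, a cytokinin response regulator gene, with 2.04 and 1.01 normalized reads in uch1/2, against 26.3 and 23.1 in wild type, and PAP16, a purple acid phosphatase gene, with 3.07 and 2.01 normalized reads in uch1/2, against 30.7 and 27.5 in wild type. ARR15 was low in the other mutants too, at 6.87 and 7.71 in nfrkb1/2/3 and 4.94 and 5.90 in ino80. The second table gave -1.60 for ARR15, -4.27 for PAP16 and 2.52 for CPK22 on the log2 scale, each called there. WAKL10 had 1.75 and was not called by limma in that table (adjusted p = 0.26). Others of the set were not called there either, such as ABCF2 (0.44), PUP2 (-0.80) and TPS04 (1.39).

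Seed storage transcripts differed widely between libraries of a genotype. CRA1, a seed storage protein gene, had 7.70 and 263 normalized reads in uch1/2, against 1.53 and 32.2 in wild type, and CRU3 had 0.247 and 110.5 normalized reads in uch1/2, against 0.0252 and 2.15 in wild type. Of these 4 libraries, both genes were highest in the second of uch1/2, and neither was called.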
